A study of Mus musculus with 8 samples.

Results

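Protein kinase A (PKA) was examined through the genes for its subunits and for one of its inhibitors in undifferentiated pleomorphic sarcoma (UPS) of the mouse hind limb. The 7 genes were taken by symbol from the table of raw counts, which lists 26667 genes. They are the catalytic subunits Prkaca and Prkacb, the type I regulatory subunits Prkar1a and Prkar1b, the type II regulatory subunits Prkar2a and Prkar2b, and the inhibitor Pkia. All 7 passed the filter on low counts, with between 91 and 6386 counts per gene and tumour. The set was put together after the higher counts of Prkar2b in HIF-2α deficient tumours had been seen in these samples, so that differences of its genes between the genotypes are given as descriptions, and the counts of calls among them are given beside those of all genes without being read as a result.

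PKA is the main intracellular receptor of cyclic AMP. At rest, a dimer of regulatory subunits holds the catalytic subunits inactive. Cyclic AMP made by adenylyl cyclases binds the regulatory subunits, frees the catalytic subunits to phosphorylate serine and threonine residues, and is removed by phosphodiesterases. Anchoring proteins (AKAPs) bind chiefly the type II regulatory subunits and hold the kinase near its substrates. In skeletal muscle PKA relays adrenergic signals to glycogen breakdown and to calcium channels.

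KP mice carry Trp53 fl/fl and a further allele, and KPH2 mice carry the same alleles with Epas1 fl/fl, which removes HIF-2α once Cre is expressed. Tumours were raised in both genotypes by injecting adenovirus with Cre recombinase into the gastrocnemius muscle of male and female mice, 8 weeks old or more, on a mixed 129/C57BL/6 background. Recombination requires that a cell or its ancestor took up the virus, and its extent in each cell type of the tumours was not measured here. RNA from paraffin sections was depleted of ribosomal RNA and sequenced with 1 library per tumour, from 4 KP tumours (KP 5 to KP 8) and 4 KPH2 tumours (KPH2 1 to KPH2 4). KPH2 1 is absent from the authors' smaller table of normalized values, the study having set aside a knockout tumour that it judged a technical outlier, and is shown apart here. Group means and differences therefore use 4 KP tumours and the 3 tumours KPH2 2 to KPH2 4 unless stated otherwise, and each difference was computed again with KPH2 1.

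Libraries held 6463221 to 13155510 counts. Rn45s, the ribosomal RNA precursor, took 1.08 to 2.79% of counts in KP and 3.58 to 9.83% in the 4 KPH2 tumours. The groups were apart in it, with a log2 difference of 1.65 ± 0.48 (SE) and an adjusted p of 0.124 in edgeR. Less complete depletion cannot be told apart here from the increased ribosome biogenesis that the paper proposes for KPH2 tumours. The part of Rn45s in the results was not tested. Within each genotype no library was a copy of another, since even the most alike tumours (KP 6 and KP 8) had a chi-square per degree of freedom of 30.4. Epas1, the deleted gene, lay between 59.2 and 86.9 counts per 1e+06 counts (CPM, scaled with TMM library sizes) in KP tumours, at 37.7 to 53.4 CPM in KPH2 2 to KPH2 4 and at 32.6 CPM in KPH2 1. The groups did not overlap, and the log2 difference of -0.81 ± 0.19 (SE) had an adjusted p (Benjamini-Hochberg) of 0.0742 by the quasi-likelihood test of edgeR. Trp53, floxed in both genotypes, ranged from 12.9 to 18.5 CPM in KP and from 13.7 to 17.1 CPM in the 4 KPH2 tumours.

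HIF-2α binds DNA with ARNT at a short core sequence, here searched as ACGTG or GCGTG, and CREB, a classical PKA substrate, binds the palindrome TGACGTCA or its shorter part TGACG. The windows searched covered the 200 bases from 250 to 51 upstream of each RefSeq transcription start (GRCm38.p6), on both strands. Entries for 6 of the 7 genes gave 19 windows, Pkia having none. The 3 windows shown belong to the genes whose levels differed without overlap also when KPH2 1 was included, and to the start lying farthest upstream in each. Capitals mark the HIF core on either strand, with CACGTG holding 2 overlapping matches. Prkar2b lies at chr12:32061328-32061527 on the minus strand, Prkaca at chr8:83972728-83972927 on the plus strand and Prkacb at chr3:146812997-146813196 on the minus strand.

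Prkar2b: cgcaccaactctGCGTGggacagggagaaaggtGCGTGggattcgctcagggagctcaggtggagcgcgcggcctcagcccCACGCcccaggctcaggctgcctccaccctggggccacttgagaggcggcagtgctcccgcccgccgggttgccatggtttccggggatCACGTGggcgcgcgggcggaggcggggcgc
Prkaca: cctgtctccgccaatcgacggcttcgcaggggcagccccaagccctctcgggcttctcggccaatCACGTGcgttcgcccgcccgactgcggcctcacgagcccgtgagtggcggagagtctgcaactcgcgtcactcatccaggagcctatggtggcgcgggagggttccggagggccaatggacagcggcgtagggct
Prkacb: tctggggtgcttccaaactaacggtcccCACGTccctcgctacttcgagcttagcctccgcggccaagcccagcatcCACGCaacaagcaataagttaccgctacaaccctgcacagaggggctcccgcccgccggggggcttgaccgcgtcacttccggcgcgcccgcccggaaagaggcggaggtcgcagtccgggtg

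The Prkar2b window shown held 5 matches and those of Prkaca and Prkacb 2 each. Windows of these genes that are not shown held 0 for Prkar2b, 1 for Prkaca, and 0 and 1 for Prkacb. A HIF core was found in 9 of the 19 windows (47.4%) and in 10374 of 32851 windows over all genes (31.6%), so that a match is common in windows of this length. The shorter CREB sequence was found in 5 of the 19 windows (26.3%) and in 12.7% of all windows, and the palindrome in 0 of the 19 and 0.828% of all. Windows of a gene with several starts can overlap. The matches are letters in a window, and no binding was measured here.

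The catalytic subunits differed between the genotypes in opposite directions. Prkacb, which encodes the Cβ subunit, had the highest mean level per exon length of the 7 genes in KP tumours and was lower in KPH2 tumours. Prkaca, which encodes the broadly expressed Cα subunit, was higher.

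Prkacb (Entrez Gene 18749) spans 146729579 to 146812946 of chromosome 3 (GRCm38). KP 5, 6, 7 and 8 had 421, 628, 548 and 482 CPM of it, whereas KPH2 2, 3 and 4 had 260.0, 269 and 328 CPM. Every KPH2 tumour was below every KP tumour, and KPH2 1, at 382 CPM, lay between the groups. Mean levels of 519.9 ± 89.1 (SD, n = 4) and 286 ± 37.2 CPM (SD, n = 3) gave a log2 difference of -0.87 ± 0.18 (SE) over the 7 tumours and of -0.75 ± 0.18 with KPH2 1.

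Prkaca (Entrez Gene 18747) spans 83972978 to 83996444 of chromosome 8. Its level was 41.4, 59.7, 53.1 and 46.6 CPM for KP 5 to KP 8, compared with 80.7, 86.3 and 75.7 CPM for KPH2 2 to KPH2 4 and 62.1 CPM for KPH2 1. All 4 KPH2 tumours were above the KP tumours, KPH2 1 only just. The group means, 50.2 ± 7.92 (SD, n = 4) and 80.9 ± 5.27 CPM (SD, n = 3), were apart by 0.69 ± 0.16 (SE) on the log2 scale, or 1.61-fold, and by 0.60 ± 0.16 with KPH2 1. Among the KP tumours both catalytic genes had their lowest level in KP 5 and their highest in KP 6.

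Pkia (Entrez Gene 18767, chromosome 3 from 7366604 to 7445366) encodes PKI alpha, which occupies the active site of free catalytic subunits and carries them out of the nucleus. KP 5 to KP 8 had 7.72, 25.2, 13.5 and 19.2 CPM, KPH2 2 to KPH2 4 had 43.1, 83.1 and 25.9 CPM, and KPH2 1 had 8.71 CPM. Its spread was the widest of the 7 genes in both groups, with a coefficient of variation of 45.7% in KP and 57.8% in KPH2 2 to KPH2 4. KPH2 4 was barely above KP 6, while KPH2 1 was close to KP 5. The log2 difference of 1.63 ± 0.47 (SE), or 3.10-fold, was the largest of the 7 and became 1.30 ± 0.62 with KPH2 1. KPH2 3 held the highest level and KP 5 the lowest.

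**Figure D1:**
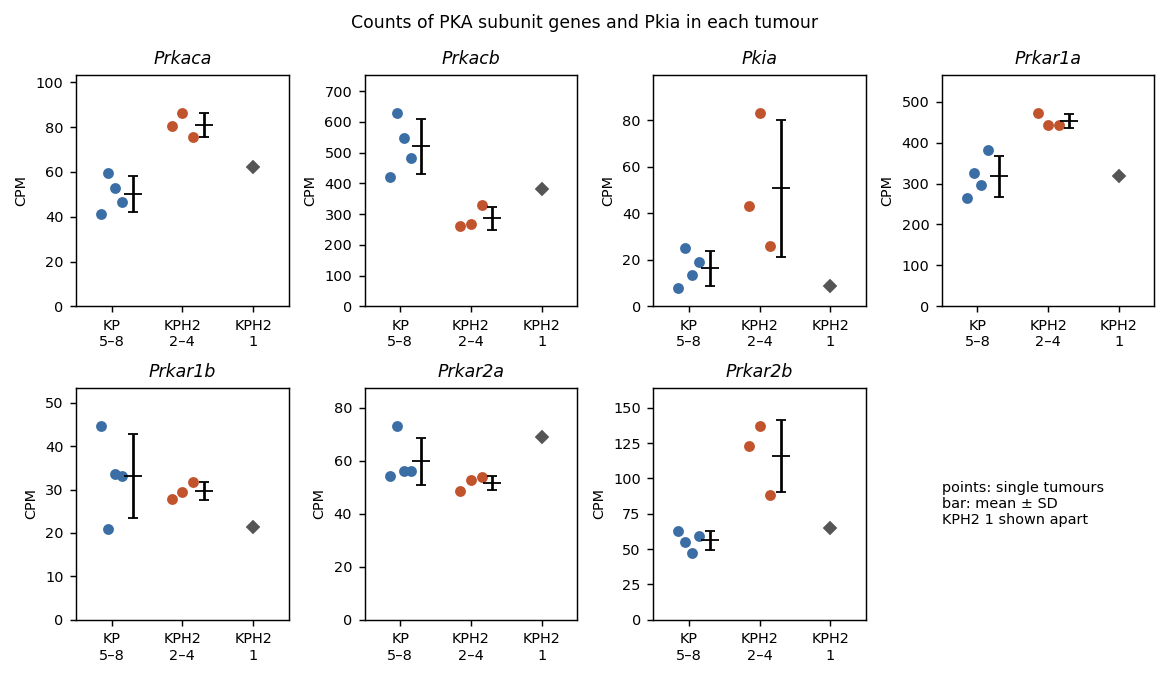
Level of each PKA gene in CPM on a linear axis from 0, with 1 panel per gene and 1 point per tumour. Black bars give the group mean ± SD (KP, n = 4, and KPH2 2 to KPH2 4, n = 3), and KPH2 1 is drawn apart. Prkaca and Prkar2b are higher and Prkacb is lower in all 4 KPH2 tumours than in any KP tumour, while Prkar1b overlaps between the groups.

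Among the regulatory subunits, Prkar2b and Prkar1a were higher in KPH2 2 to KPH2 4, whereas Prkar1b and Prkar2a differed little. Prkar2b encodes RIIβ, best known from brain and fat. Prkar1a encodes RIα, which is found in nearly all tissues and restrains the kinase when other subunits are lacking.

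Prkar2b (Entrez Gene 19088) spans 31958450 to 32061648 of chromosome 12. Its level was 63.0, 54.9, 47.3 and 59.2 CPM for KP 5 to KP 8, compared with 123, 137 and 87.9 CPM for KPH2 2 to KPH2 4 and 65.1 CPM for KPH2 1. All KPH2 tumours were above the KP tumours, but KPH2 1 exceeded KP 5 by less than the SD of the KP group, 6.74 CPM. From a KP mean of 56.1 (n = 4) and a KPH2 mean of 116 ± 25.1 CPM (SD, n = 3), the log2 difference was 1.04 ± 0.18 (SE), or 2.06-fold, and 0.88 ± 0.23 with KPH2 1.

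Prkar1a (Entrez Gene 19084, chromosome 11 from 109649023 to 109669663) reached 264, 325, 297 and 382 CPM among KP 5 to KP 8 but 472, 442 and 443 CPM among KPH2 2 to KPH2 4. KPH2 1, at 319 CPM, was within the KP range. The groups were apart without it, with means of 317 ± 50.2 (SD, n = 4) and 452 ± 16.9 CPM (SD, n = 3). The log2 difference was 0.51 ± 0.16 (SE), and 0.40 ± 0.17 with KPH2 1.

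Prkar2a, the widely expressed RIIα (Entrez Gene 19087, chromosome 9 from 108692143 to 108750444), had 54.1, 72.9, 55.9 and 56.1 CPM for KP 5 to KP 8, 48.5, 52.6 and 53.7 CPM for KPH2 2 to KPH2 4, and 69.1 CPM for KPH2 1. KPH2 4 and KP 5 were nearly equal, and KPH2 1 was higher than 3 of the KP tumours. Its log2 difference was -0.21 ± 0.16 (SE), and -0.09 ± 0.16 with KPH2 1. Prkar1b, RIβ, which is known mainly from neurons (Entrez Gene 19085, chromosome 5 from 139017304 to 139150703), ranged from 20.9 to 44.6 CPM in KP and from 27.8 to 31.8 CPM in KPH2 2 to KPH2 4, with 21.3 CPM in KPH2 1. The KPH2 values lay within the KP range, and the log2 difference was -0.16 ± 0.24 (SE). Neither difference was much larger than its standard error.

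**Figure D2:**
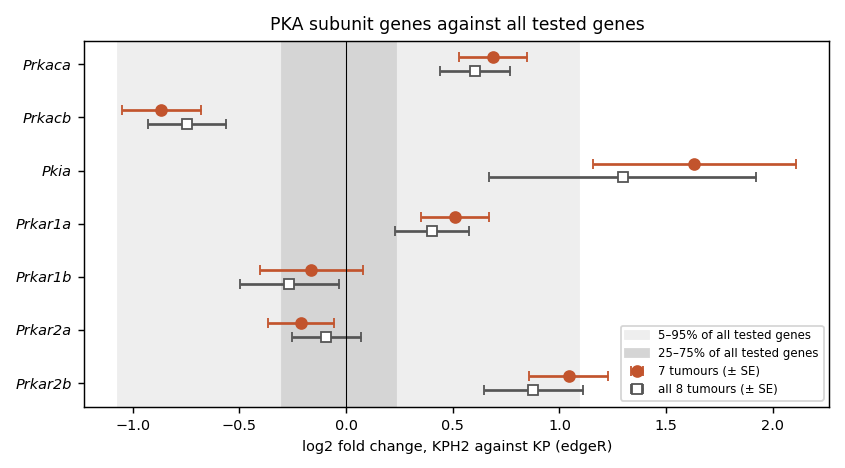
Log2 difference between KPH2 and KP tumours for the 7 genes, with bars of 1 SE, over the 7 tumours (filled) and with KPH2 1 included (open). Shading covers the central 25 to 75% and 5 to 95% of all tested genes over the 7 tumours. The difference is largest for Pkia, at 1.63, and lies below 0 for Prkacb, at -0.87. With KPH2 1 the differences of all genes but Prkar1b lie closer to 0.

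Over the 7 tumours, 1 of the 7 genes, Prkar2b, passed the threshold of 0.05 on edgeR's adjusted p with a higher level in KPH2, and 0 passed with a lower level. Of the 14867 genes tested 1.96% passed, 1.24% with a higher and 0.72% with a lower level, and an unadjusted p under 0.05 was reached by 5 of the 7 and 17.8% of all genes. The groups did not overlap for 6 of the 7, compared with 16.9% of all genes. KPH2 levels were the higher ones for Prkaca, Prkar1a, Prkar2b and Pkia (8.73% of all genes) and the lower ones for Prkacb and Prkar2a (8.15%). With all 8 tumours, 0 of the 7 were called by edgeR, against 0.00675% of all genes, and 4 had an unadjusted p under 0.05, against 14.7%. There, 3 of the 7 did not overlap between the groups, against 8.15% of all genes, with Prkaca and Prkar2b higher (3.76%) and Prkacb lower (4.39%). As the genes were chosen from this contrast, nothing is read from these counts. The call of Prkar2b was lost when KP 6, KP 7, KP 8, KPH2 2 or KPH2 3 was left out, and was kept without KP 5 or KPH2 4. DESeq2's Wald test called 4 of the 7 genes over the 7 tumours, Prkaca, Prkacb, Prkar2b and Pkia, and 1179 genes (7.95%) in all. The median log2 difference of the 7 genes was 0.51, and that of all tested genes -0.02.

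To compare levels between genes, CPM were divided by the exon length of each gene in kilobases. In KP tumours the order was Prkacb, at 99.8 ± 17.1 CPM per kb (SD, n = 4), Prkar1a, at 86.5 ± 13.7, Prkaca, at 20.2 ± 3.18, Prkar2b, at 15.4 ± 1.85, Prkar1b, at 12.1 ± 3.52, Prkar2a, with an SD of 1.77 and values from 10.9 to 14.7, and Pkia, at 4.54 ± 2.08. The values of Prkacb and Prkar1a overlapped, as did those of Prkaca and Prkar2b, and those of Prkar2b, Prkar1b and Prkar2a. In KPH2 2 to KPH2 4 Prkar1a came first, at 123 CPM per kb (120.7 to 129), and Prkacb second, at 54.8 ± 7.13 (SD, n = 3), without overlap. Prkaca, at 32.5 ± 2.12, and Prkar2b, at 31.7 ± 6.88, overlapped in the next places, followed by Pkia, at 14.0 ± 8.10, Prkar1b, at 10.8 ± 0.73, and Prkar2a, at 10.4 ± 0.55, which overlapped with each other. KPH2 1 kept Prkar1a first, at 86.9, and Prkacb second, at 73.2 CPM per kb, and had Pkia last, at 2.41.

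On this per-length scale the make-up of the catalytic pool differed between the genotypes. Prkaca supplied 17.1, 16.6, 16.9 and 16.9% of the summed catalytic level in KP 5 to KP 8, 39.4, 40.2 and 32.6% in KPH2 2 to KPH2 4, and 25.4% in KPH2 1. The 4 KP tumours were nearly alike, at 16.9% ± 0.202 (SD, n = 4), while the levels of both genes varied among them, and KPH2 1 lay between the groups. The share was picked out after its values had been seen. Reads aligning to both genes equally well are not unique alignments and were not counted, and the shares depend on the lengths used: without division by length Prkaca supplied 8.68 to 8.96% in KP, 18.7 to 24.3% in KPH2 2 to KPH2 4 and 14.0% in KPH2 1.

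The summed catalytic level averaged 119.9 ± 20.3 CPM per kb (SD, n = 4) among KP tumours and 87.3 ± 5.65 (SD, n = 3) among KPH2 2 to KPH2 4, and the summed regulatory level 126.0 ± 12.7 and 176 ± 7.98. Prkar1a made up most of the regulatory sum in every tumour. The ratio of catalytic to regulatory transcripts was 0.836, 1.15, 1.08 and 0.773 in KP 5 to KP 8, against 0.452, 0.481 and 0.559 in KPH2 2 to KPH2 4. The ratio of KPH2 1, 0.777, was within the KP range. Between the group means the log2 ratio differed by -0.93.

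Type II genes supplied 19.1 to 24.2% of the regulatory level in KP and 20.9 to 26.8% in KPH2 2 to KPH2 4, with 25.1% in KPH2 1. The ranges overlapped, Prkar1a and Prkar2b both being higher in KPH2 2 to KPH2 4. Within type II, Prkar2b made up 50.6 to 61.3% in KP and 69.0 to 77.9% in KPH2 2 to KPH2 4, and 56.2% in KPH2 1, within the KP range. Pkia, expressed as a percentage of the summed catalytic level, was 2.19 to 4.82% in KP, 7.67 to 26.6% in KPH2 2 to KPH2 4 and 2.45% in KPH2 1. These are ratios of transcripts, and neither protein nor kinase activity was measured in these libraries.

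**Figure D3:**
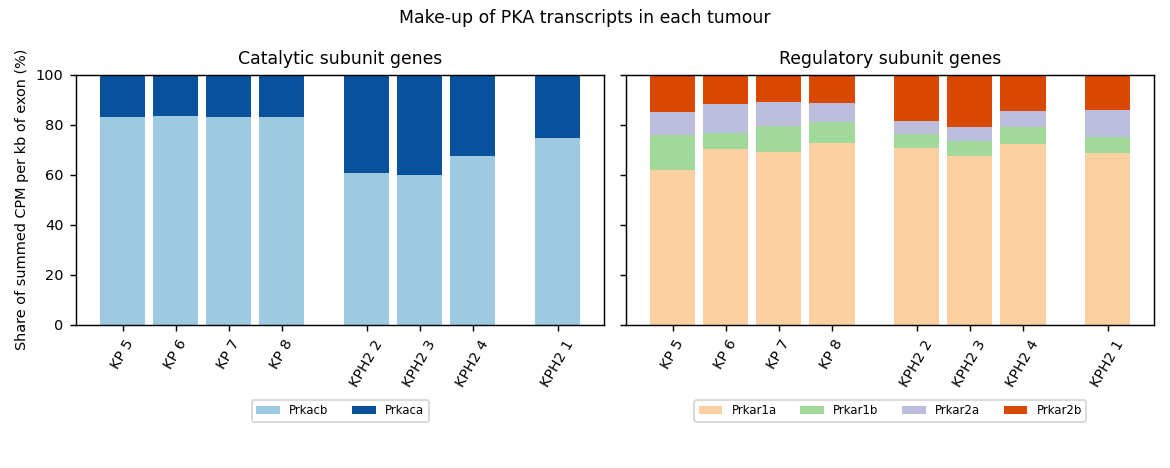
Make-up of PKA transcripts per tumour, from CPM per kb of exon and stacked to 100%, with the catalytic genes on the left and the regulatory genes on the right. Prkaca takes 16.6 to 17.1% of the catalytic sum in KP tumours, 32.6 to 40.2% in KPH2 2 to KPH2 4 and 25.4% in KPH2 1, while Prkar1a takes most of the regulatory sum in every tumour.

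Skeletal muscle transcripts were present in all tumours, and a change of level per cell cannot be told apart from a change in the number of cells of a type in such bulk samples. All 25 genes of a skeletal muscle list had log2 differences above 0 between KPH2 2 to KPH2 4 and KP tumours, and 3 of them (Eno3, Neb and Myoz2) were called higher by edgeR and 20 by DESeq2, against 1.24% and 4.03% of all genes. Their summed level was 3372, 2354, 1840 and 3166 CPM in KP 5 to KP 8, 12480, 19490 and 4320 CPM in KPH2 2 to KPH2 4, and 1524 CPM in KPH2 1. The tumours with the most muscle transcripts, KPH2 2 and KPH2 3, also had the highest levels of Prkar2b, Prkaca and Pkia and the lowest of Prkacb. Among the KP tumours, KP 5, with the highest muscle sum, likewise had the highest Prkar2b and the lowest Prkacb, but it had the lowest Prkaca and Pkia. KPH2 1, with the lowest muscle sum of all tumours, though KP 6 and KP 7 were below it by mean log2 CPM over the list (3.84 and 3.87 against 3.97), was closer to the KP mean than KPH2 2 to KPH2 4 were for each of these genes.

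KPH2 4 and KP 5 had close mean log2 CPM over the muscle list, 5.21 and 5.12. KPH2 4 had 87.9 and KP 5 63.0 CPM of Prkar2b, 75.7 and 41.4 CPM of Prkaca, and 328 and 421 CPM of Prkacb. These are single tumours, whose muscle sums differed (4320 and 3372 CPM), and the pair is no test of the part of muscle. With the muscle list as a covariate, the log2 difference was 0.80 ± 0.30 (SE) for Prkaca and 0.50 ± 0.29 for Prkar1a, close to the values without it. It was 0.47 ± 0.23 for Prkar2b, -0.42 ± 0.27 for Prkacb and 0.84 ± 0.92 for Pkia, nearer to 0 than without it. Each of these SE was larger than without the covariate. The muscle values of the groups did not overlap, at 3.84 to 5.12 in KP and 5.21 to 7.51 in KPH2 2 to KPH2 4. The fit therefore cannot tell muscle and genotype apart, and nothing is read from which genes moved.

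Other cell types known for PKA subunits were followed by their own lists. Of 10 adipocyte genes, 4 passed the filter and 0 were called by edgeR or DESeq2, against 1.96% and 7.95% of all genes. An unadjusted edgeR p under 0.05 was reached by 2 of the 4, against 17.8% of all genes. The sum over the 10 was 25.6 to 57.7 CPM in KP and 20.5 to 27.3 CPM in the 4 KPH2 tumours. Of 10 Schwann cell and nerve genes, 9 were tested and 7 had log2 differences above 0. Called higher were 1 by edgeR and 2 by DESeq2, against 1.24% and 4.03% of all genes. An unadjusted edgeR p under 0.05 was reached by 4, against 17.8% of all genes. The list summed to 113 to 266 CPM in KP, 256 to 389 in KPH2 2 to KPH2 4 and 112 in KPH2 1. All 8 macrophage genes had log2 differences below 0. Of them 0 were called by edgeR and 1 by DESeq2, against 0.72% and 3.92% of all genes called lower. An unadjusted edgeR p under 0.05 was reached by 3, against 17.8% of all genes. The macrophage sums were 2163 to 4046 CPM in KP and 1588 to 2392 in the 4 KPH2 tumours. Of 8 genes each, edgeR called 1 smooth muscle gene, Cnn1, and 1 mesenchymal gene, Pdgfra, lower, against 0.72% of all genes. It called 0 endothelial genes. DESeq2 called 2 smooth muscle, 1 mesenchymal and 2 endothelial genes lower, against 3.92% of all genes. In the same order, 2, 2 and 3 genes had an unadjusted edgeR p under 0.05, against 17.8% of all genes. Sums of the smooth muscle list were 279 to 754 CPM in KP and 137 to 650.1 in KPH2 tumours, and those of the endothelial list 284 to 560.2 and 212 to 309.7. The mesenchymal sums were 6266 to 17580 and 5143 to 10230 CPM, and 0 genes of any list were at 0 in all tumours. By mean log2 CPM of the lists, KPH2 2 and KPH2 3, the lowest in Prkacb and highest in Prkar2b, also had the lowest macrophage values (6.96 and 7.06, against 7.30 to 7.92 in KP). Schwann cell and nerve values were 2.93 to 3.03 in KPH2 2 to KPH2 4, above the 1.62 to 2.74 of KP tumours, with 1.89 in KPH2 1. The part of these cells in the PKA values was not tested.

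**Figure D4:**
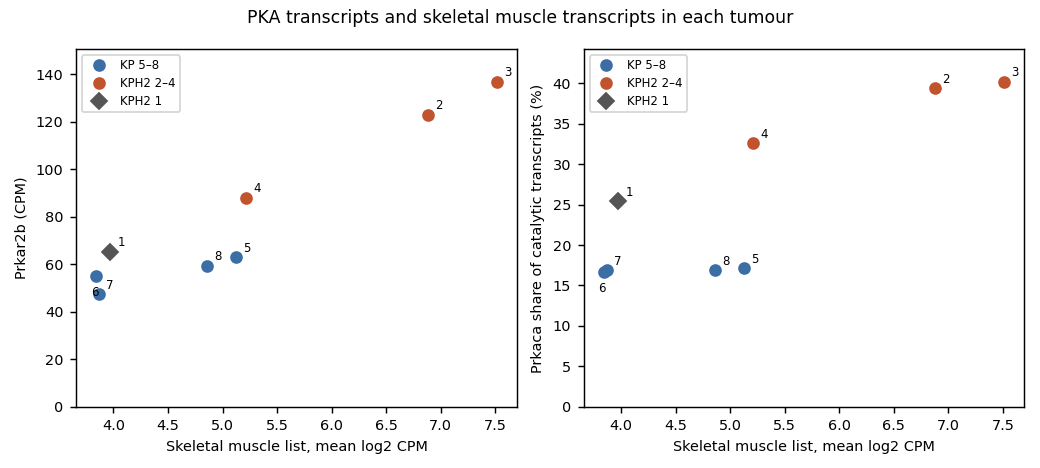
Prkar2b in CPM (left) and the Prkaca share of the catalytic sum in percent (right) against the mean log2 CPM of 25 skeletal muscle genes, with 1 point per tumour, labelled by its number. KPH2 2 and KPH2 3 lie far to the right with the highest values of both, and KPH2 4 lies above KP 5 in both panels at almost the same muscle score (5.21 and 5.12).

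The genes most like each PKA gene were ranked by Pearson correlation of log2 CPM over the 8 tumours, among 14805 genes. With 8 points that share libraries and genotype, high values are found for many pairs, and they are descriptions only. Nearest to Prkar2b were Myf6, a myogenic transcription factor (r = 0.986), Ip6k3, an inositol phosphate kinase found in muscle (r = 0.984), and Ano5, an anoctamin of muscle membranes (r = 0.977). Nearest to Pkia were Eya2 (r = 0.965), Myom3, a protein of the sarcomere M-band (r = 0.962), and Pgm5 (r = 0.955). Myf6 averaged 1.16 CPM in KP tumours and 6.85 CPM in KPH2 2 to KPH2 4, with 1.92 CPM in KPH2 1.

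Nearest to Prkaca were Ccbp2 (r = 0.967), Prkg2, a cyclic GMP-dependent kinase (r = 0.965), and Ddb1, a subunit of a ubiquitin ligase (r = 0.959). Prkg2 averaged 29.4 CPM in KP tumours and 213 CPM in KPH2 2 to KPH2 4, with 67.5 CPM in KPH2 1. Prkacb was closest to Rnf141 (r = 0.983), A730049H05Rik (r = 0.974) and Xylt1 (r = 0.973), and Prkar1a to Ano8 (r = 0.977), Dusp22 (r = 0.974) and the calcium sensor Stim2 (r = 0.968). The 3 genes nearest to Prkar1b were Lrrc19, Qsox1 and Fam124a (r = 0.934 to 0.964), and those nearest to Prkar2a Gnpda2, 4930405O22Rik and Baz1b (r = 0.946 to 0.963). No gene was among the 3 nearest of more than 1 PKA gene.

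The rest of the cyclic AMP pathway was described with a list of 82 genes, from receptors and G proteins to CREB targets, of which 72 were tested. By the quasi-likelihood test of edgeR, adjusted by Benjamini-Hochberg over all genes, 4 were higher in KPH2 tumours (Pkig, Akap6, Popdc3 and Bves) and 1, Pde1a, was lower, where 1.24% and 0.72% of all tested genes were called. The median log2 difference of the 72 was -0.09, against -0.02 for all genes, with 29 above 0 and 43 below. All 5 calls were lost with KPH2 1 included, at adjusted p of 0.152 to 0.326 in edgeR, where 1 gene in all was called. They were also lost with the muscle list as a covariate, at 0.283 to 0.759, where 3 genes in all were called. With the covariate the log2 differences were 0.71 for Pkig, 1.54 for Akap6, 4.64 for Popdc3, 4.31 for Bves and -1.95 for Pde1a. Across the alternatives the adjusted p of the 5 genes ran from 4.63e-11 to 0.759. The 4 higher calls became 2 without KP 5, 1 without KPH2 3 and 0 without KP 7, KP 8 or KPH2 2, and of the 7 tumours left out in turn only KP 5 left Pde1a called. Without KP 8 the lower gene called was Akap12 in its place, an anchoring protein named after its values were seen.

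Pkig encodes PKI gamma, an inhibitor of the catalytic subunits like Pkia. KP tumours had 20.3 to 26.9 CPM, KPH2 2 to KPH2 4 had 54.0, 60.2 and 39.2 CPM, and KPH2 1, with 15.4 CPM, was below all KP tumours. The log2 difference over the 7 tumours was 1.12 ± 0.19 (SE), with an adjusted p of 0.0306 in edgeR. Prkx, a kinase related to the catalytic subunits that regulatory type I subunits also bind, averaged 33.9 ± 8.65 (SD, n = 4) and 30.7 ± 5.18 CPM (SD, n = 3) in KP and KPH2 tumours and did not pass.

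Akap6 encodes an anchoring protein of the nuclear envelope in striated muscle. It lay between 7.40 and 17.7 CPM in KP, at 61.6, 69.1 and 22.1 CPM in KPH2 2 to KPH2 4 and at 7.27 CPM in KPH2 1, with a log2 difference of 2.31 ± 0.45 (SE) and an adjusted p of 0.0491 in edgeR. Of the 14 anchoring genes tested it was the only one called by edgeR over the 7 tumours, against 1.96% of all genes. DESeq2 called Akap6 higher and Akap12 lower, against 4.03% and 3.92% of all genes. The most abundant anchoring genes, Akap13 and Akap2, had log2 differences of 0.03 and -0.29.

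Popdc3 and Bves encode Popeye proteins, cyclic AMP binding proteins of striated muscle membranes. Popdc3 was at 1.63 to 7.50 CPM in KP and at 79.8, 33.0 and 41.3 CPM in KPH2 2 to KPH2 4, with an adjusted p of 0.0222 in edgeR. Bves was at 0.593 to 6.08 CPM in KP and at 47.8, 25.3 and 22.1 CPM in KPH2 2 to KPH2 4, with an adjusted p of 0.0480 in edgeR. Their log2 differences, 3.94 ± 0.56 and 3.86 ± 0.75 (SE), were larger than that of any PKA subunit gene, yet KPH2 1 had only 0.320 and 0.160 CPM, the lowest of all tumours. Rapgef3, the cyclic AMP-activated exchange factor EPAC1, had a log2 difference of 0.46 and did not pass.

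Pde1a, a phosphodiesterase activated by calcium and calmodulin, fell from 18.5, 44.3, 16.2 and 26.5 CPM in KP 5 to KP 8 to 7.56, 4.20 and 4.73 CPM in KPH2 2 to KPH2 4, with 13.1 CPM in KPH2 1. All KPH2 tumours were below the KP tumours. The log2 difference was -2.25 ± 0.41 (SE), with an adjusted p of 0.0381 in edgeR. Of the 14 phosphodiesterase genes tested, 10 had log2 differences below 0 and 8 had an unadjusted p under 0.05, compared with 17.8% of all tested genes, and DESeq2 called 4 lower and 1 higher, against 3.92% and 4.03% of all genes. The most abundant phosphodiesterases, Pde3b and Pde7a, had log2 differences of -0.34 and 0.48 and did not pass.

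Upstream of the kinase, 0 of 11 receptor and G protein genes and 0 of 9 adenylyl cyclase genes were called by edgeR, and 1 and 2 of them had an unadjusted p under 0.05, against 17.8% of all genes. DESeq2 called 0 of the former and 2 of the latter, Adcy4 and Adcy8, both lower over the 7 tumours (3.92% of all genes) and named after their values were seen. Adcy8 was at 2.82 to 33.5 CPM in KP, 0.270 to 3.10 CPM in KPH2 2 to KPH2 4 and 87.1 CPM in KPH2 1, the highest of all tumours, and its log2 difference turned from -3.09 to 0.60 with KPH2 1 included. Gnas, which encodes the stimulatory G protein subunit, had the highest level of the first group, 777 ± 64.3 (SD, n = 4) and 1022 ± 69.4 CPM (SD, n = 3) for KP and KPH2 tumours. Its log2 difference was 0.39 ± 0.15 (SE) with an adjusted p of 0.209 in edgeR, and that of the inhibitory subunit Gnai3 was -0.24. The most abundant cyclases, Adcy7 and Adcy6, had differences of 0.13 and -0.06.

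Downstream, 0 of 8 genes of CREB and its partners and 0 of 8 CREB target genes were called by edgeR, with 3 and 1 at an unadjusted p under 0.05, against 17.8% of all genes, and 0 of either by DESeq2, against 7.95%. Crebbp and Ep300, coactivators that bind phosphorylated CREB, had log2 differences of 0.01 and 0.07. Of the targets, Sik1, a kinase induced by cyclic AMP, had a difference of 0.55 and the clock gene Per1 one of -0.10, and neither passed. The medians of the partner and target lists were -0.05 and -0.08, near that of all genes.

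**Figure D5:**
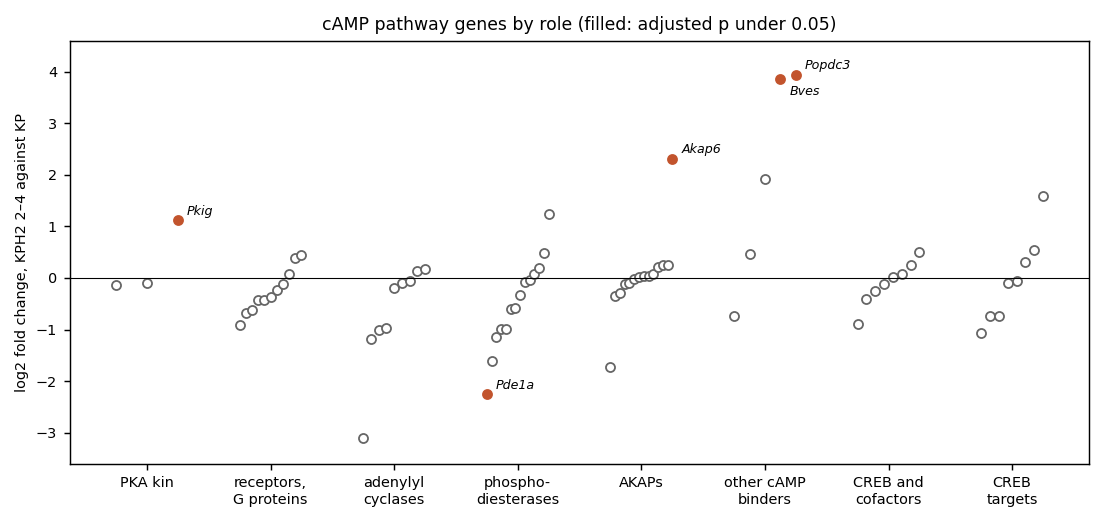
Log2 difference between KPH2 2 to KPH2 4 and KP tumours for the 72 tested genes of the cyclic AMP pathway, grouped by role, with 1 point per gene and filled points for genes past an adjusted p of 0.05 in edgeR. The 5 filled points are Pkig, Akap6, Popdc3 and Bves above 0 and Pde1a below, and those of receptors, cyclases and CREB genes are all open.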

How the data were processed

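RNA from 8 UPS tumours was sequenced from stranded libraries. Raw counts for each RefSeq gene were deposited by the authors, who ran STAR against GRCm38 and HTSeq on uniquely aligned reads (versions 2.4 and 0.6.1 in the submitters' processing notes). The strand setting of the counting is not given in the sources used here. Tables of regularized log2 values (rlog of DESeq2, deposited by the authors for 7 and for 8 tumours) served as an alternative scale.

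Tests used edgeR 4.0.16 in R 4.3.3 (TMM, low-count filter with minimum count 10 and total 15, robust quasi-likelihood test, no covariates) over 7 tumours, KP 5 to KP 8 and KPH2 2 to KPH2 4. P-values were Benjamini-Hochberg adjusted over 14867 genes, with a threshold of 0.05. They set the difference between groups against the variation among single tumours, which with 1 library per tumour includes that of section and library. CPM were scaled with TMM library sizes of all 8 tumours, and log2 CPM used a prior count of 2. SE of log2 differences were taken from the F statistic. Exon lengths are unions of GENCODE M21 transcripts that pair with a RefSeq transcript, and promoters came from RefSeq. The genes and lists were chosen with earlier results of these data known. Genes named are the PKA genes, Epas1, Trp53, cyclic AMP pathway genes past the threshold, the 2 most abundant genes of each role, and the 3 genes most correlated with each PKA gene. Other genes, those called within cell type lists, were named after their values were seen. In the lists 2 genes were matched by older symbols. The test was tried on simulated counts. Alternatives were all 8 tumours, other normalizations and filters, no robust estimates, DESeq2 1.42.0, rlog differences, a muscle covariate and leaving out each tumour. An allele shared by both genotypes and a gene of the cell type lists are not reported here.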

Additional observations from a re-analysis of the deposited data

Results flagged for a closer look

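Among 76 groups of 4 tumours (the PKA genes, their shares, the named pathway genes and the cell type lists), 11 held a tumour far from the others by Dixon's ratio, the gap to the nearest tumour divided by the range. By chance about 1 in 20 groups would. KPH2 1 was the lowest of the KPH2 tumours for Prkar1a (ratio 0.836), Pde7a (0.901), Bves (0.844), the Schwann cell and nerve list (0.914) and the endothelial list (0.891). KP 5 was the lowest of the KP tumours for Epas1 (0.887), Prkx (0.894), Gnai3 (0.841) and the macrophage list (0.963). KP 6 was the highest of the KP tumours for Prkar2a (0.882) and Akap6 (0.887). For Prkar1a in KPH2 this concerns a tumour the study had set aside, and for Prkar2a in KP it was KP 6, at 72.9 CPM, that lay farthest above the KPH2 2 to KPH2 4 values.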

How the results depend on the processing

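No paired analysis was made, since KP and KPH2 tumours came from mice of different genotype and the sample labels name no pairs. No named pathway gene called by edgeR over the 7 tumours, and no PKA gene other than Prkar1b, changed sign. The log2 differences of Prkar1b, Prkx, Gnai3, Adcy6, Adcy7, Pde3b, Akap2, Akap13, Crebbp, Ep300 and Per1, none of them called by edgeR, changed sign under at least 1 alternative, as did that of Adcy8 with all 8 tumours (-3.09 to 0.60). With all 8 tumours the genes called fell from 1 to 0 PKA genes, from 4 to 0 higher and 1 to 0 lower pathway genes, and from 292 to 1 over all genes, and the difference in the Prkaca share was 17.5 percentage points against 20.5. With the muscle covariate 0 PKA genes, 0 higher and 0 lower pathway genes and 3 genes in all were called, and the log2 differences of Prkacb, Prkar2a, Prkar2b and Pkia became -0.42, -0.035, 0.47 and 0.84. DESeq2's Wald test called 4 PKA genes, 6 higher and 7 lower pathway genes and 1179 genes in all. Higher pathway calls were 2 without a filter and 2 with a mean count of at least 50. In the authors' 7-tumour rlog values, which shrink differences by construction, Prkaca, Prkacb and Prkar2b differed by 0.45, -0.56 and 0.67, and in the 8-tumour table Prkaca, Prkacb, Prkar1a, Prkar2b and Pkia by 0.48, -0.60, 0.32, 0.66 and 0.79. From CPM without division by length the Prkaca share differed by 13.4 points. For the other changes the cause was not tested.

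Leaving out each tumour in turn gave 0 to 2 PKA genes called, 0 to 4 higher and 0 to 1 lower pathway genes, and 55 to 349 genes in all, with the fewest without KPH2 2 and the most without KP 5. Log2 differences ran from 0.62 to 0.78 for Prkaca, -0.98 to -0.76 for Prkacb, 0.44 to 0.61 for Prkar1a, -0.33 to 0.03 for Prkar1b, -0.25 to -0.11 for Prkar2a, 0.91 to 1.21 for Prkar2b and 1.08 to 1.95 for Pkia. The difference in the Prkaca share ran from 19.1 to 22.9 points, that in the type II share from 0.47 to 3.43 points, and that in the log2 ratio of catalytic to regulatory level from -1.03 to -0.84. With 3 and 4 tumours per group, the SE of the log2 differences of Prkar1b and Prkar2a were 0.24 and 0.16, against differences of -0.16 and -0.21.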
